A study of Mus musculus with 4 samples.

Results

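The endothelin system is described here through 3 genes listed in each of the 3 library tables: Edn1, which encodes the precursor of endothelin-1, Ednrb, which encodes the endothelin type B receptor, and Ece1, which encodes endothelin-converting enzyme 1. They were chosen by name, with earlier results of these data known, and are 3 of the 11049 genes that all 3 tables hold. The cells came from kidneys of C57BL/6J mice aged 10 to 14 weeks, and 4 libraries were made: 1 from mice with angiotensin II hypertension, 1 from their saline-treated controls, 1 from mice with salt-sensitive hypertension and 1 from their controls on a normal diet. How salt-sensitive hypertension was induced, the sex of the mice and the number pooled are not stated in the labels. Kidneys were pooled within each group and dissociated, and cells were taken magnetically with antibodies to CD31, an endothelial surface protein, and then to podoplanin, which marks lymphatic endothelium, podocytes and some epithelial cells. Each group is thus 1 library from a pool of mice, so no test between groups was possible, and each interval below covers counting error only, not the spread between mice. The control table holds 2 libraries told apart by their barcode endings, called control library 1 and control library 2 here. Which of them came from saline-treated mice and which from mice on a normal diet cannot be told apart from the sources used here, so neither hypertension library could be set against its own control.

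Endothelin-1 is a strong vasoconstrictor peptide made mainly by endothelial cells. Its precursor is cut by proprotein convertases such as furin to big endothelin-1, and endothelin-converting enzymes, metalloproteases of the membrane, then release the active peptide. The type A receptor, encoded by Ednra, sits mainly on vascular smooth muscle and mesangial cells and drives contraction. The type B receptor on endothelial cells raises nitric oxide and prostacyclin and takes endothelin-1 out of the circulation. In the kidney, collecting duct cells also make endothelin-1 and carry the type B receptor, through which sodium reabsorption is lowered.

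Edn1 lies on chromosome 13 (42301476 to 42307990, plus strand), Ednrb on chromosome 14 (103814625 to 103844402, minus strand) and Ece1 on chromosome 4 (137862237 to 137965229, plus strand), all in GRCm38, the assembly of mm10, by GENCODE vM21. The antisense gene Gm47118 (42302298 to 42304991) lies within Edn1 and the antisense gene Gm13012 (137882370 to 137883937) within Ece1. No source used here states whether counting used strand, so reads from these partners cannot be told apart from those of the members. The 250 bases before the annotated RefSeq start of each gene (GRCm38.p6) are printed below, read 5′ to 3′ on the gene's strand, because the 3 members differed in how they varied between libraries and vessel types. They span chr13:42301226-42301475, chr14:103843702-103843951 and chr4:137861987-137862236, and for Ece1 the most upstream of 4 annotated starts was used. None of the 3 stretches overlaps an exon of GENCODE vM21. The Ednrb stretch nevertheless lies inside the GENCODE bounds of that gene, whose most upstream base is 103844402. It is thus not the sequence upstream of the whole gene. Capitals would mark a match to one of 6 motifs searched on both strands, and no match lay wholly within these bases.
Edn1: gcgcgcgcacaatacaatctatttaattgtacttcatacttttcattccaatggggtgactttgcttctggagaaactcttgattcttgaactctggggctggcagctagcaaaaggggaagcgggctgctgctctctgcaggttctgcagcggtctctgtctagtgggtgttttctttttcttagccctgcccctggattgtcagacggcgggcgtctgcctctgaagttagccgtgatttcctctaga
Ednrb: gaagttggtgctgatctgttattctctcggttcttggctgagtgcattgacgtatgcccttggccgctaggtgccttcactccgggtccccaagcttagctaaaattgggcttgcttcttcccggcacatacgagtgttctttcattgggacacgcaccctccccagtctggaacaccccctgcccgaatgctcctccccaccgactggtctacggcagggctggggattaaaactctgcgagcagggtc
Ece1: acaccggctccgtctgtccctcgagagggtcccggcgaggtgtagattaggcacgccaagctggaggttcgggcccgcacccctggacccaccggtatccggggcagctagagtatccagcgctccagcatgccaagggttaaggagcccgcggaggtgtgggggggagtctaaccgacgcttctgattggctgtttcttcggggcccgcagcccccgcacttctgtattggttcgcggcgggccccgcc
GC content was 50.4% for Edn1, 56.8% for Ednrb and 66.8% for Ece1, against a median of 52.4% over 32851 RefSeq promoter entries of the same length. CG dinucleotides numbered 9, 11 and 22 in that order, against a median of 6. The first motif searched was AGATAA, which GATA factors bind. TGACTCA is the usual site of AP-1, the dimer of Fos and Jun proteins. A variant of that site, TGACTAA, was searched as well. TATAAA is the letter form of the TATA box. ACGTG is the core of hypoxia response elements, and its matches on both strands can overlap. The GC box was searched as CCCGCCC. In the first 50 bases from the annotated start of Edn1, AGATAA began at base 9 and ACGTG at base 22, both on the minus strand. TGACTAA began there at base 37 on the plus strand. Where transcription of Edn1 starts in these cells was not tested, so these bases may or may not be transcribed. Over the 300-base windows of all promoter entries, 11.2% held AGATAA, 19.6% ACGTG and 2.35% TGACTAA. The same window of Ednrb held none of the 6, and that of Ece1 held CCCGCCC across the start, as did 25.6% of all windows for that motif. The shares of the other motifs in all windows were 5.2% for TGACTCA and 13.6% for TATAAA. These matches describe letters only.

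Of 10535 cells, 2885 were endothelial by the rule, which asks for at least 3 UMIs (unique molecular identifiers, 1 per captured RNA molecule) of Pecam1, Cdh5, Kdr and Tie1 together and at least 12 of these per 10000. They were 1223 of 2837 cells (43.1%) in the angiotensin II library, 1517 of 3284 (46.2%) in the salt-sensitive library, 19 of 2406 (0.790%) in control library 1 and 126 of 2008 (6.27%) in control library 2. Of 15 endothelial markers that the rule did not use, 14, 15, 14 and 15 were higher in these cells than in all others in that order of libraries. Of the 7 lymphatic markers fixed, only Prox1 and Flt4 were in the shared genes, so the cells are called endothelial, not lymphatic. Library totals ranged from 1727731 to 7479337 UMIs, and the median per cell from 557 to 1795. Median depth per endothelial cell was 4792, 2371, 1995 and 2811 UMIs. Tubule marker transcripts came to 873, 1647, 12050 and 1405 per 1000000 UMIs of the endothelial cells. With 19 endothelial cells, of which 1 UMI was Edn1, 1 Ednrb and 10 Ece1, control library 1 gave no ratio, and control library 2 alone served as the control for endothelial cells. Between any 2 libraries at most 2 cell barcodes were shared.

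Edn1 was the member that varied most between vessel types, and in endothelial cells it was highest in the salt-sensitive library. Levels are counts per 1000000 UMIs summed over the cells (CPM) with exact Poisson intervals. Edn1 stood at 69.0 CPM (62.3 to 76.3, 381 UMIs) in the angiotensin II library, 186 CPM (173 to 200.01, 737 UMIs) in the salt-sensitive library and 90.4 CPM (61.4 to 128, 31 UMIs) in control library 2. The salt-sensitive library was thus high, and the intervals of the angiotensin II and control libraries overlapped. Ratios are given as log2 of (CPM + 5), with the exact interval of the plain ratio, and a ratio is called past the fold at 1 or more in size (2-fold) with at least 20 UMIs over both sums. Salt-sensitive over control library 2 gave a log2 ratio of 1.003 (0.52 to 1.61) for Edn1, just past the fold, and it fell short of it under 9 other settings, at 0.36 and 0.02 without cells of the 2 arterial thresholds given with the vessel types, 0.73 with a stricter endothelial threshold and between 0.94 and 0.99 under the other 6. Angiotensin II over control library 2 gave -0.36 (-0.92 to 0.19), and angiotensin II over salt-sensitive gave -1.37 (-1.61 to -1.25), a level 0.371 times as high.

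Ednrb had the reverse order of the hypertension libraries. Its level in endothelial cells was 441 CPM (424 to 459, 2435 UMIs) in the angiotensin II library, 200.5 CPM (187 to 215, 794 UMIs) in the salt-sensitive library and 265 CPM (214 to 326, 91 UMIs) in control library 2. No intervals overlapped between the angiotensin II library and either of the others, while those of the salt-sensitive and control libraries overlapped narrowly. The log2 ratio of Ednrb was 0.72 (0.43 to 1.05) for angiotensin II over control library 2, -0.40 (-0.72 to -0.07) for salt-sensitive over control library 2. The angiotensin II library over the salt-sensitive one gave 1.12 (1.02 to 1.26), a level 2.20 times as high. Only the last of these was past the fold. The first and second share their control, and the difference between them is the third.

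Ece1 differed little between libraries. It stood at 409.6 CPM (393 to 427, 2260 UMIs) in the angiotensin II library, 423 CPM (403 to 444, 1677 UMIs) in the salt-sensitive library and 417 CPM (351 to 491, 143 UMIs) in control library 2. All 3 intervals overlapped. The log2 ratios of Ece1 were -0.02 (-0.27 to 0.23) and 0.02 (-0.22 to 0.28) over control library 2, and -0.05 (-0.14 to 0.04) between the hypertension libraries, so a difference of 2-fold lay outside each interval. For comparison, over all genes with enough UMIs 4.74% were past the fold for angiotensin II over control library 2, 6.97% for salt-sensitive over control library 2 and 2.92% for angiotensin II over salt-sensitive. Of the 3 members, 0, 1 and 2 were past it in these comparisons.

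**Figure D1:**
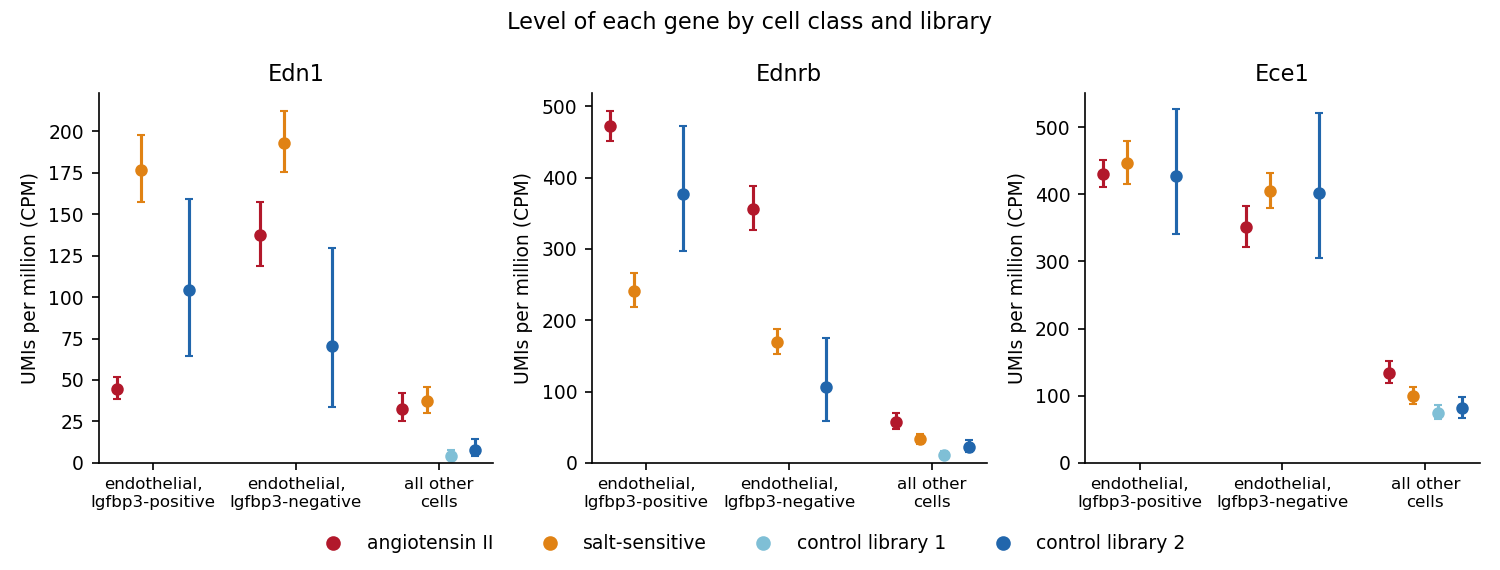
Level of Edn1, Ednrb and Ece1 (CPM, linear axis from 0) in Igfbp3-positive endothelial, Igfbp3-negative endothelial and all other cells, 1 point per library with its 95% exact Poisson interval. Control library 1 is drawn only for other cells. In Igfbp3-positive cells Edn1 was lowest in the angiotensin II library (44.6 CPM) and Ednrb highest there (472 CPM), while Ece1 lay between 351 and 447 CPM in all endothelial classes drawn.

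Igfbp3, a marker of peritubular capillary endothelium in the kidney, split the endothelial cells into 867 positive and 356 negative cells in the angiotensin II library, 665 and 852 in the salt-sensitive library and 69 and 57 in control library 2. In Igfbp3-positive cells, Edn1 was at 44.6 CPM (181 UMIs) in the angiotensin II library, 177 CPM (304 UMIs) in the salt-sensitive library and 104 CPM (21 UMIs) in control library 2. The log2 ratio of Edn1 was -1.14 (-1.88 to -0.50) for angiotensin II over control library 2 and 0.73 (0.12 to 1.47) for salt-sensitive over control library 2. Between the hypertension libraries it was -1.87 (-2.26 to -1.72). With each cell thinned to 1000 UMIs the first was -0.57, and with Igfbp3-positive cells taken from 2 UMIs it was -0.50, both short of the fold. At full depth the control thus lay between the hypertension libraries in these cells. Without cells above the lower arterial threshold, salt-sensitive over control library 2 turned to -0.65 for Edn1 and angiotensin II over salt-sensitive was -0.77, short of the fold. In Igfbp3-negative cells Edn1 was at 137 CPM (200 UMIs), 193 CPM (433 UMIs) and 70.6 CPM (10 UMIs), with log2 ratios of 0.91 (0.05 to 2.04) and 1.39 (0.56 to 2.52) over control library 2. Angiotensin II over salt-sensitive was -0.48 (-0.74 to -0.25) in the Igfbp3-negative cells. Without the arterial-rich cells, a set defined with the vessel types,, the salt-sensitive ratio of Edn1 in Igfbp3-negative cells was 0.85, short of the fold. The control rests on few Edn1 UMIs in both classes, and the largest number in 1 of its cells was 6.

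For Ednrb in Igfbp3-positive cells the levels were 472, 241 and 377 CPM (1916, 415 and 76 UMIs) in the angiotensin II library, the salt-sensitive library and control library 2. Log2 ratios were 0.32 (-0.01 to 0.67) and -0.63 (-1.001 to -0.27) over control library 2. Between the hypertension libraries the ratio was 0.95 (0.81 to 1.12), with angiotensin II the higher. In Igfbp3-negative cells Ednrb was at 356, 169 and 106 CPM (519, 379 and 15 UMIs). There both hypertension libraries were above the control, with log2 ratios of 1.70 (1.01 to 2.60) and 0.65 (-0.07 to 1.53), of which only the first was past the fold and its interval stayed above 1. The excess of the angiotensin II over the salt-sensitive library was 1.05 (0.88 to 1.27) for Ednrb in the Igfbp3-negative cells, and 0.81 to 0.94 under 5 other settings. Ece1 stayed between 351 and 447 CPM in both classes of the 3 libraries, and its ratios between libraries lay between -0.20 and 0.07 on the log2 scale.

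The shares of all genes past the fold were 9.71%, 9.81% and 2.78% in Igfbp3-positive cells for angiotensin II over control library 2, salt-sensitive over control library 2 and angiotensin II over salt-sensitive. They were 12.1%, 14.6% and 2.12% in Igfbp3-negative cells. Of the 3 members, 1, 0 and 1 were past the fold in the positive cells, and 1, 1 and 1 in the negative cells. Set against each other within a library, Igfbp3-positive over Igfbp3-negative cells gave a log2 ratio for Edn1 of -1.52 (-1.92 to -1.32) in the angiotensin II library, -0.13 (-0.35 to 0.09) in the salt-sensitive library and 0.53 (-0.59 to 1.81) in control library 2. Edn1 was thus lower in the Igfbp3-positive cells past the fold in the angiotensin II library alone of the 3. Under other settings its ratio ran from -1.71 to -0.92 there. It ran from -0.65 to -0.01 in the salt-sensitive library and from -0.30 to 0.75 in control library 2. The split takes any Igfbp3 UMI, and depth per cell differed between the libraries. Ednrb was higher in the Igfbp3-positive cells of all 3 libraries, by 0.40 (0.27 to 0.55), 0.50 (0.31 to 0.72) and 1.78 (1.02 to 2.74). Ece1 gave 0.29 (0.15 to 0.44), 0.14 (0.00095 to 0.28) and 0.08 (-0.42 to 0.59). The shares of all genes past the fold were 1.71%, 1.56% and 7.09% in these comparisons, and 1, 0 and 1 of the 3 members were.

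**Figure D2:**
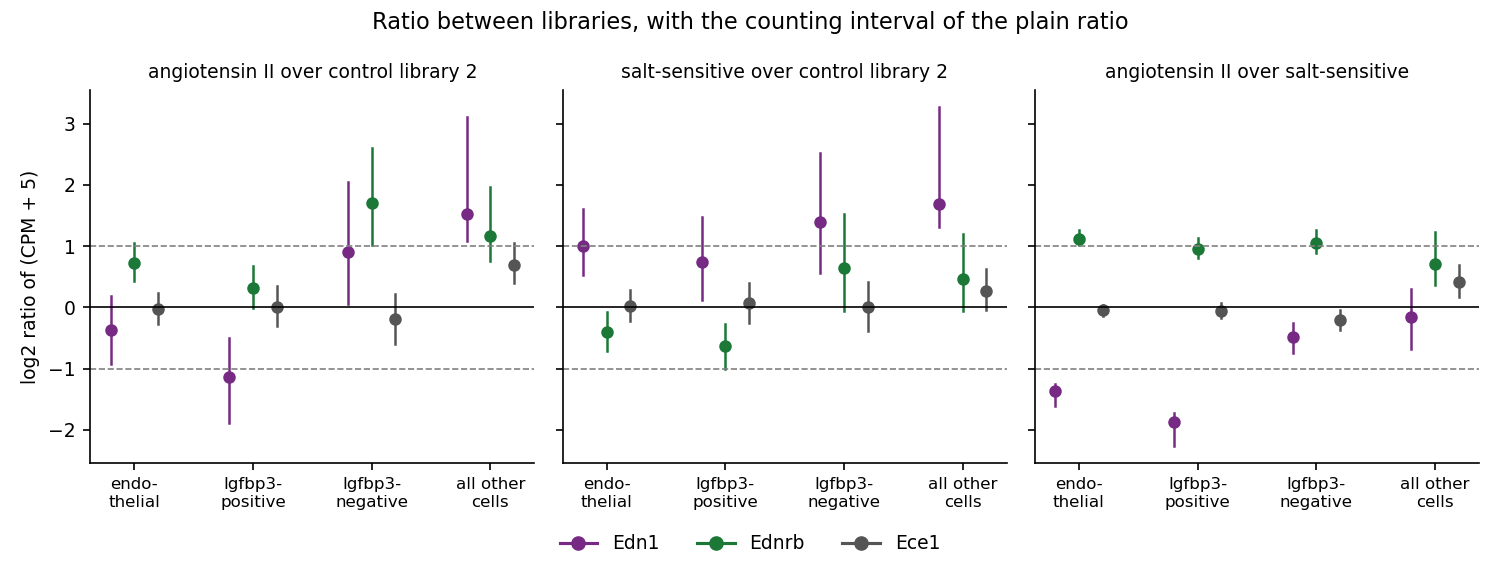
Log2 ratio of (CPM + 5) between libraries for Edn1, Ednrb and Ece1 (points) with the 95% exact interval of the plain ratio (lines), in all endothelial cells, their Igfbp3-positive and Igfbp3-negative parts and all other cells. Dashed lines mark a 2-fold ratio. Between the hypertension libraries Edn1 lay at -1.37 and Ednrb at 1.12 in endothelial cells, with Ece1 at -0.05.

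Edn1 was carried by few cells. It was detected in 150 of 1223 endothelial cells (12.3%) of the angiotensin II library, 309 of 1517 (20.4%) of the salt-sensitive library and 14 of 126 (11.1%) of control library 2. The 5% of endothelial cells with most Edn1 held 72.7%, 53.9% and 71.0% of its UMIs in that order, and the most in 1 cell was 23, 14 and 6 UMIs. For Ednrb these cells held 27.3%, 43.2% and 23.1%, and for Ece1 17.3%, 20.8% and 19.6%. By this share Edn1 was more unevenly spread over cells than the receptor or the enzyme in each of the 3 libraries. The genes were not matched for level, with 381, 737 and 31 UMIs of Edn1 against 2435, 794 and 91 of Ednrb. Ednrb was detected in 62.1%, 29.1% and 42.1% of endothelial cells and Ece1 in 77.1%, 58.7% and 58.7%.

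Because endothelial cells of the angiotensin II library were deeper, each cell was also thinned to 1000 UMIs, leaving out shallower ones (29, 39 and 7 cells). Edn1 was then detected in 5.61%, 10.96% and 5.04% of cells, Ednrb in 30.2%, 16.9% and 25.2% and Ece1 in 34.1%, 32.1% and 24.4% in the same order of libraries. Cells outside the endothelial class, thinned alike, had Edn1 in 2.68%, 2.83% and 1.84%, Ednrb in 4.88%, 3.40% and 3.07% and Ece1 in 10.7%, 9.86% and 7.36%. Their median depths before thinning were 863, 1005 and 536 UMIs. Thinning left out 942 of 1614, 885 of 1767 and 1556 of 1882 of these other cells. The 1.84% of control library 2 is 6 of the 326 cells kept. Every endothelial share was above the share in other cells of the same library.

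**Figure D3:**
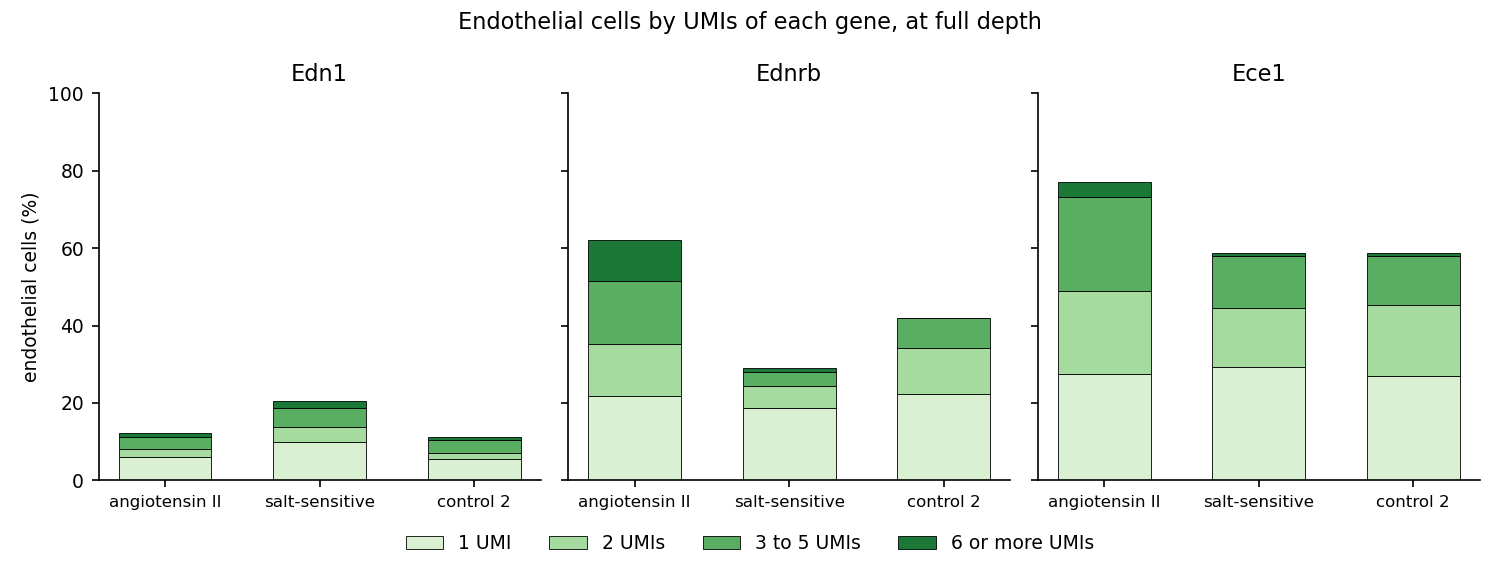
Share of endothelial cells (%, stacked bars from 0) with 1, 2, 3 to 5 or 6 or more UMIs of Edn1, Ednrb and Ece1 in the angiotensin II library, the salt-sensitive library and control library 2, at full depth. Edn1 was found in 12.3%, 20.4% and 11.1% of cells and Ednrb in 62.1%, 29.1% and 42.1%. Median depth per cell was 4792, 2371 and 2811 UMIs.

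In the hypertension libraries, Edn1 was high and Ednrb low in endothelial cells rich in arterial markers. Endothelial cells rich in arterial markers were those with at least 3 UMIs and 30 per 10000 of Gja4, Sox17, Fbln5, Efnb2, Cxcl12 and Sema3g, and they were 81 cells (6.62%) of the angiotensin II library, 216 (14.2%) of the salt-sensitive library and 5 (3.97%) of control library 2. In these cells Edn1 reached 398 CPM (333 to 472, 131 UMIs) in the angiotensin II library and 551 CPM (494 to 613, 339 UMIs) in the salt-sensitive library. The remaining endothelial cells held 48.2 and 119 CPM. Arterial-rich over remaining cells thus gave a log2 ratio for Edn1 of 2.92 (2.73 to 3.36) and 2.17 (1.999 to 2.43). They held 34.4% of the endothelial Edn1 UMIs of the angiotensin II library and 46.0% of those of the salt-sensitive library, but 1 of 31 (3.23%) in control library 2, where they were 5 cells. Ednrb was the reverse, at 167 CPM (126 to 218) against 459 CPM in the angiotensin II library and 69.9 CPM (50.6 to 94.2) against 224 CPM in the salt-sensitive library, a log2 ratio of -1.43 (-1.87 to -1.07) and -1.61 (-2.16 to -1.24). Ece1 was level between them, at -0.02 (-0.28 to 0.23) and -0.05 (-0.25 to 0.15). Past the fold were 9.88% and 5.11% of all genes and 2 of the 3 members in each library.

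These cells are a range and not a type, since 32 and 77 of them lay between 30 and 36 arterial UMIs per 10000, and a further 63 and 107 endothelial cells between 24 and 30. Their median capillary marker level was 6.42 and 3.17 per 10000, against 52.2 and 28.1 in the remaining cells, and their glomerular marker level 8.84 and 8.96 against 5.15 and 5.72. With the threshold lowered to 12 per 10000, which takes 422 and 705 cells, Edn1 was at 134 and 299 CPM and Ednrb at 376 and 134 CPM. At 60 per 10000 the salt-sensitive library kept 34 cells, with Edn1 at 765 CPM and Ednrb at 51.0 CPM. These sets and their thresholds were chosen after the data were seen. A higher threshold thus went with more Edn1 and less Ednrb in the salt-sensitive library over these 3 settings.

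Within the arterial-rich cells, angiotensin II over salt-sensitive gave a log2 ratio of -0.47 (-0.77 to -0.17) for Edn1, 1.2 (0.65 to 1.87) for Ednrb and -0.03 (-0.34 to 0.28) for Ece1, where 5.64% of all genes and 1 of the 3 members were past the fold. At the lower arterial threshold the ratio of Edn1 was -1.12, past the fold. Without them, in the remaining endothelial cells, Edn1 was at 48.2 CPM (250 UMIs) in the angiotensin II library, 119 CPM (398 UMIs) in the salt-sensitive library and 91.3 CPM (30 UMIs) in control library 2. Salt-sensitive over control library 2 was then 0.36 (-0.16 to 0.97) for Edn1, no longer past the fold. Angiotensin II over salt-sensitive was -1.22 (-1.54 to -1.07) for Edn1 and 1.01 (0.91 to 1.15) for Ednrb. Without the cells above the lower threshold Edn1 was at 34.2, 67.4 and 66.5 CPM, so the salt-sensitive library and the control were alike, with a log2 ratio of 0.02. Between the hypertension libraries Edn1 was then -0.89 and Ednrb 0.81, both short of the fold, and Igfbp3-positive over Igfbp3-negative cells of the angiotensin II library gave -0.92 for Edn1. The salt-sensitive library had both the highest share of arterial-rich cells (14.2%) and the highest Edn1 level. Its endothelial cells were shallower than those of the angiotensin II library (median 2371 against 4792 UMIs), and these shares were not matched for depth. The angiotensin II library had a share of 6.62% against 3.97% (5 cells) in control library 2, but the lower Edn1 level, 69.0 against 90.4 CPM. Fewer cells of a type and less RNA per cell cannot be told apart in sums over all endothelial cells.

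Endothelial cells rich in the capillary markers Npr3, Esm1, Plvap and Gpihbp1 (871, 655 and 83 cells) gave Edn1 levels of 37.2 CPM (31.5 to 43.6) in the angiotensin II library, 85.0 CPM (71.1 to 101) in the salt-sensitive library and 98.1 CPM (62.2 to 147) in control library 2. Here the angiotensin II library alone was low, with a log2 ratio for Edn1 of -1.29 (-2.04 to -0.70) over control library 2 and -1.09 (-1.54 to -0.84) over the salt-sensitive library, while salt-sensitive over control library 2 was -0.20 (-0.85 to 0.50). Ednrb stood at 503, 247 and 349.7 CPM, with ratios of 0.52 (0.21 to 0.86) and -0.49 (-0.85 to -0.14) over control library 2 and 1.01 (0.87 to 1.19) between the hypertension libraries. Ece1 was at 439, 488 and 443 CPM, and its 3 ratios lay between -0.15 and 0.14. Past the fold were 7.82%, 8.15% and 2.43% of all genes for angiotensin II over control library 2, salt-sensitive over control library 2 and angiotensin II over salt-sensitive, and 1, 0 and 2 of the 3 members. The last count depended on the threshold: between the hypertension libraries Edn1 was -0.87 at 60 capillary UMIs per 10000 and Ednrb 0.96 at 12, each short of the fold. Median arterial marker levels in these cells were 7.05, 7.76 and 4.56 per 10000.

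Cells rich in the glomerular markers Ehd3, Pi16, Plat, Tbx3 and Smad6 numbered 53, 191 and 15. Edn1 was at 231 CPM (168 to 309, 45 UMIs) in the angiotensin II library and 66.7 CPM (46.7 to 92.4, 36 UMIs) in the salt-sensitive library. Edn1 was thus higher in the angiotensin II library here, but 15 of its 45 UMIs came from 1 cell, and at 12 glomerular UMIs per 10000 the order turned, with 148 against 181 CPM. Of these cells, 10 of 53 in the angiotensin II and 31 of 191 in the salt-sensitive library were also arterial-rich. Ednrb was at 189.9 CPM (134 to 262) and 204 CPM (168 to 246) and Ece1 at 565 CPM (464 to 681) and 514 CPM (455 to 578), with overlapping intervals for both genes.

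**Figure D4:**
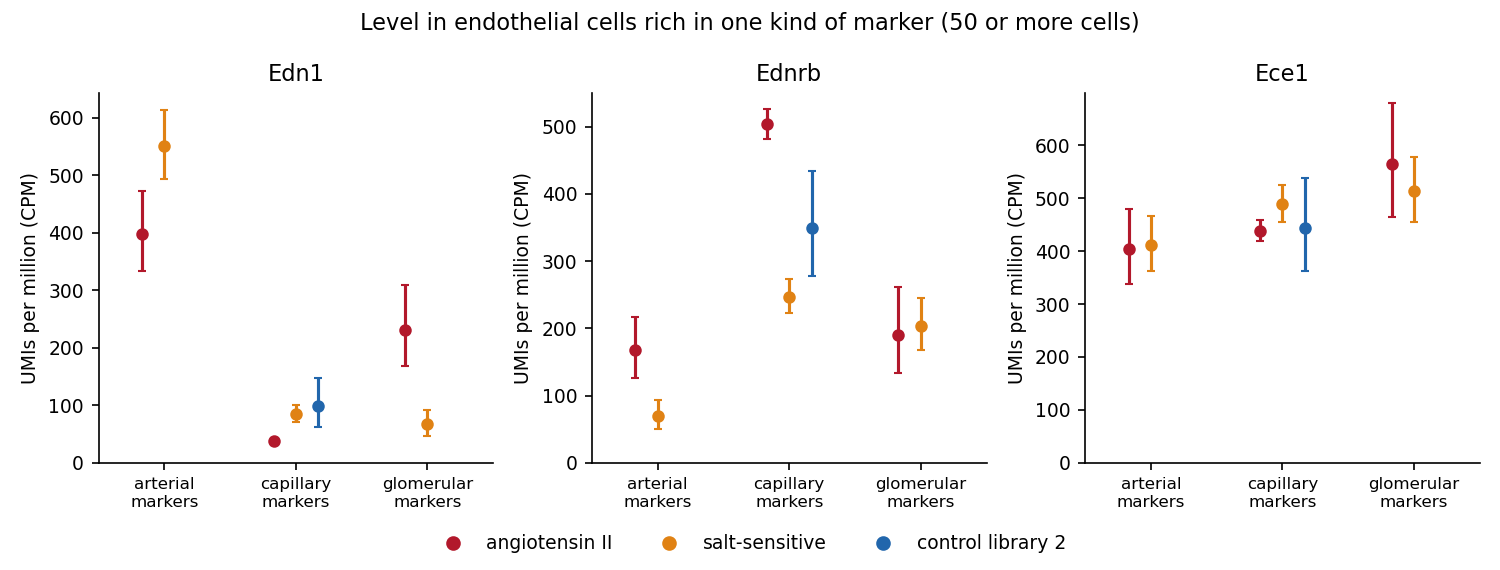
Level of Edn1, Ednrb and Ece1 (CPM, linear axis from 0, 95% exact Poisson intervals) in endothelial cells with at least 3 UMIs and 30 per 10000 of arterial, capillary or glomerular markers, for each library with 50 or more such cells. Edn1 was at 398 and 551 CPM in arterial-rich cells and at 37.2 to 98.1 CPM in capillary-rich cells, and Ednrb was highest in the capillary-rich cells of the angiotensin II library (503 CPM).

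Ednrb was detected less often in Edn1-positive than in Edn1-negative endothelial cells of the hypertension libraries. In the angiotensin II library Ednrb was detected in 44 of 150 Edn1-positive cells (29.3%, exact binomial interval 22.2 to 37.3) and in 66.6% (63.7 to 69.5) of Edn1-negative cells. In the salt-sensitive library it was in 42 of 309 Edn1-positive cells (13.6%, 9.97 to 17.9) and in 33.1% (30.5 to 35.8) of the others. Intervals did not overlap in either library. After thinning the shares were 8.96% (3.36 to 18.5) against 31.5% and 4.94% (2.16 to 9.50) against 18.4%. In control library 2 the shares were 42.9% (17.7 to 71.1) of 14 cells and 42.0% (32.7 to 51.7), so no difference was detectable at that number of cells. Capillary markers summed to 7145 CPM in Edn1-positive against 5368 CPM in Edn1-negative cells of that library, and to 4162 against 6352 CPM and 2118 against 3521 CPM in the angiotensin II and salt-sensitive libraries. Arterial markers summed to 1984 CPM in Edn1-positive against 1028 CPM in Edn1-negative cells of the angiotensin II library and 2700 against 1376 CPM of the salt-sensitive library. Ece1 was at 408 and 409.8 CPM in Edn1-positive and Edn1-negative cells of the angiotensin II library and at 414 and 426 CPM in those of the salt-sensitive library.

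All 3 members were lower in the 7650 cells outside the endothelial class, most of which carried proximal tubule markers. Edn1 was at 32.7 CPM (61 UMIs) in the angiotensin II library, 37.2 CPM (91 UMIs) in the salt-sensitive library, 4.38 CPM (12 UMIs) in control library 1 and 8.03 CPM (11 UMIs) in control library 2. Both control libraries were low and both hypertension libraries high. Ednrb was at 57.3, 33.1, 11.7 and 22.6 CPM (107, 81, 32 and 31 UMIs) and Ece1 at 134, 99.7, 74.8 and 81.8 CPM (251, 244, 205 and 112 UMIs). The control libraries were the lowest for each of the 3 genes.

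Over control library 2, the log2 ratios in these other cells were 1.53 (1.09 to 3.1) and 1.69 (1.30 to 3.26) for Edn1 in the angiotensin II and salt-sensitive libraries, 1.17 (0.75 to 1.97) and 0.46 (-0.06 to 1.195) for Ednrb, and 0.68 (0.39 to 1.05) and 0.27 (-0.04 to 0.62) for Ece1. Over control library 1 they were 2.01 (1.99 to 3.93) and 2.17 (2.21 to 4.09) for Edn1, 1.90 (1.71 to 2.91) and 1.19 (0.90 to 2.14) for Ednrb, and 0.81 (0.57 to 1.12) and 0.39 (0.14 to 0.69) for Ece1. Thinning to 1000 UMIs kept the deeper 672, 882 and 326 other cells of the angiotensin II library, the salt-sensitive library and control library 2. Edn1 over control library 2 was then 0.63 and 0.93 and Ednrb of the angiotensin II library 0.77, all short of the fold. At such low levels the added 5 CPM pulls a ratio toward 0, so it can lie at or below the interval of the plain ratio. Between the hypertension libraries Edn1 differed by -0.16 (-0.68 to 0.30), Ednrb by 0.71 (0.36 to 1.23) and Ece1 by 0.41 (0.17 to 0.69). The shares of all genes past the fold were 2.6% and 2.2% over control library 2, 5.36% and 4.2% over control library 1 and 0.607% between the hypertension libraries. Of the 3 members, 2 and 1 were past it over control library 2, 2 and 2 over control library 1 and 0 between the hypertension libraries.

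Endothelial marker transcripts were also higher in the other cells of the hypertension libraries. The 15 independent endothelial markers summed to 2934 and 3073 CPM in the other cells of the angiotensin II and salt-sensitive libraries and to 1192 and 1308 CPM in those of the 2 control libraries. Edn1 UMIs per 100 UMIs of these markers were 1.11 and 1.21 in other cells of the angiotensin II and salt-sensitive libraries. In those of control libraries 1 and 2 they were 0.367 and 0.614. Endothelial cells held 0.412, 1.35, 0.364 and 0.568 in the same order of libraries. Other cells with no UMI of the 4 rule markers had Edn1 at 23.9 CPM (25 UMIs), 13.5 CPM (16 UMIs), 4.23 CPM (9 UMIs) and 3.53 CPM (4 UMIs) in the order angiotensin II, salt-sensitive, control library 1 and control library 2. Those with at least 1 such UMI had 43.9, 59.3, 4.88 and 29.4 CPM. Ednrb was at 37.2, 22.0, 11.3 and 16.8 CPM without and 82.9, 43.5, 13.0 and 50.4 CPM with such UMIs. By CPM at full depth, Edn1 and Ednrb were thus higher in every library in the cells that also held endothelial marker UMIs. The intervals of cells with and without such UMIs overlapped for both genes in control library 1, for Edn1 in the angiotensin II library and narrowly for Ednrb in control library 2. Without such cells the log2 ratio of Edn1 was 1.76 (1.22 to 4.74) and 1.12 (0.30 to 3.97) over control library 2 for the angiotensin II and salt-sensitive libraries, and 1.64 (1.35 to 3.78) and 1.005 (0.41 to 3.04) over control library 1. After thinning, the share of these cells with Edn1 was 3.12% for angiotensin II, 0.725% for salt-sensitive, 0.235% for control library 1 and 0.823% for control library 2, so the salt-sensitive library was then not above control library 2. These shares rest on 11, 3, 2 and 2 of the 352, 414, 851 and 243 cells kept. In cells with rule marker UMIs the thinned shares with Edn1 were 2.19%, 4.70%, 0% and 4.82%, from 7, 22, 0 and 4 cells. The order thus turned for Edn1 in the angiotensin II library and control library 1. For Ednrb the thinned shares in control library 1 were 1.41% without and 1.40% with rule marker UMIs. At full depth, 8 of the 36 Edn1 UMIs of angiotensin II cells with rule marker UMIs lay in 1 cell. Whether endothelial RNA or doublets contribute to the levels in other cells was not tested.

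**Figure D5:**
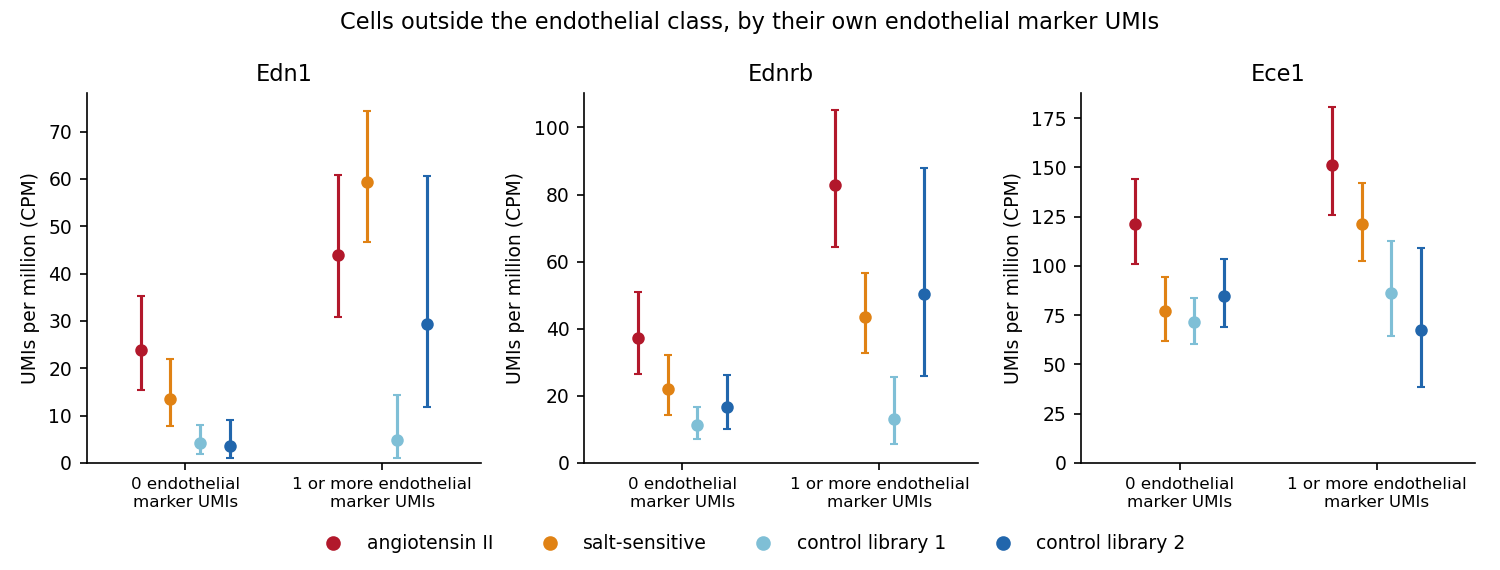
Level of Edn1, Ednrb and Ece1 (CPM, linear axis from 0, 95% exact Poisson intervals) in cells outside the endothelial class, by whether the cell held any UMI of Pecam1, Cdh5, Kdr and Tie1. Edn1 lay between 3.53 and 23.9 CPM in cells without such UMIs and between 4.88 and 59.3 CPM in cells with them.

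Principal cells of the collecting duct, a known source of endothelin-1 in the kidney, were too few to measure. Other cells with at least 3 UMIs of Aqp2, Fxyd4, Scnn1b and Apela numbered 10, 24, 8 and 10 in the 4 libraries and held 1, 1, 0 and 0 UMIs of Edn1 and 3, 0, 0 and 0 of Ednrb. Cells with podocyte markers (93, 187, 35 and 28) had Edn1 at 44.8, 53.4, 31.8 and 64.4 CPM from 10, 27, 2 and 3 UMIs. They also held the 15 independent endothelial markers at 4663, 4510, 939 and 4144 CPM. Over all cells outside the endothelial class these markers were at 2934, 3073, 1192 and 1308 CPM. Whether this Edn1 came from podocytes was not tested. Cells with stromal and mural markers held 16 Edn1 UMIs in 63 cells of the angiotensin II library (124 CPM, 70.9 to 201) and 1 UMI in 39 cells of the salt-sensitive library (9.04 CPM, 0.23 to 50.4), and 8 of the 16 lay in 1 cell. Such cells of the control libraries, 29 and 20 in number, held 0.

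The type A receptor gene Ednra was not in the shared genes and was read from the control table and from the table that joins both hypertension libraries. The rule gave 1338 and 1504 endothelial cells in the joined table. Endothelial cells held 0 Ednra UMIs in the angiotensin II library (which allows up to 0.509 CPM), 2 in the salt-sensitive library (0.506 CPM, 0.0613 to 1.83) and 0 in each control library (up to 86.9 and 8.74 CPM). Other cells held 11 UMIs (7.71 CPM, 3.85 to 13.8), 27 (10.9 CPM, 7.18 to 15.9), 35 (12.6 CPM, 8.81 to 17.6) and 14 (10.1 CPM, 5.53 to 17.0). The 4 intervals overlapped in these cells. For the 2727 angiotensin II cells found in both files, the joined table kept 88.2% of the UMIs of the separate one, and ratios of the members from it served only as an alternative setting.

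A list of 52 further genes of the pathway had 41 among the shared genes. Those not listed there were the ligands Edn2 and Edn3, the receptor Ednra, the proteases Ece2, Ecel1, Kel and Cma1, the G protein regulators Rgs4 and Rgs5, and Ptgs2 and Ptgis of prostanoid synthesis. Of these, Ednra alone is given here. In endothelial cells over control library 2, 1 of 40 was past the fold for angiotensin II and 4 of 41 for salt-sensitive, all higher. This counts genes at 0 UMIs in the control, as do the shares of all genes, 4.74% and 6.97%. Among list genes with UMIs in both sums, 0 of 39 and 2 of 39 were past the fold. Fos and Mme, at 0 UMIs in that control, are given apart. Between the hypertension libraries 3 of 41 were lower in the angiotensin II library and 0 higher, against 2.92% of all genes in either direction. The median log2 ratio over the 40, 41 and 41 genes with enough UMIs was 0.04, 0.20 and -0.11, against 0.02, 0.04 and -0.03 over all genes, and 0.04, 0.18 and -0.11 with genes at 0 UMIs in the control set to their bound.

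Among the proteases that process the precursor, Pcsk5, a proprotein convertase, varied in the same order as Edn1. Its level in endothelial cells was 81.0 CPM (447 UMIs) in the angiotensin II library, 225 CPM (890 UMIs) in the salt-sensitive library and 117 CPM (40 UMIs) in control library 2, a log2 ratio of -1.42 (-1.64 to -1.31) between the hypertension libraries. In arterial-rich cells Pcsk5 was at 471 CPM in the angiotensin II library against 56.3 CPM in the remaining cells, and at 549.7 against 165 CPM in the salt-sensitive library, a log2 ratio of 2.96 and 1.71. Between the hypertension libraries, 0 of 3 processing and degradation genes were past the fold within arterial-rich cells, and 0 of 3 within capillary-rich cells. Without arterial-rich cells 1 of 4 was, lower in the angiotensin II library. The shares of all genes were 5.64%, 2.43% and 3.01%. Furin, the convertase usually named for endothelin, was at 58.9, 51.8 and 58.3 CPM, and Pcsk7 at 50.02, 40.4 and 43.7 CPM. Mme, which encodes neprilysin, a protease that degrades endothelin-1, had 12, 28 and 0 UMIs in endothelial cells, all at or below the 8.74 CPM that a count of 0 allows in control library 2, so no fold is given.

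Of the genes that act after the receptor, Arrb1, which encodes the receptor adaptor beta-arrestin 1, was at 36.1, 77.3 and 32.1 CPM in the angiotensin II library, the salt-sensitive library and control library 2. Pla2g4a, the phospholipase that frees arachidonic acid for prostanoids, was at 18.1, 61.4 and 17.5 CPM. Both were past the fold and high in the salt-sensitive library, at 1.15 (0.41 to 2.29) and 1.56 (0.67 to 3.27) over control library 2, where the control held 11 and 6 UMIs. Without arterial-rich cells Arrb1 was 0.98, short of the fold, and Pla2g4a 1.46, and in capillary-rich cells they were 0.18 and -0.48. Nos3, the endothelial nitric oxide synthase, was at 79.7, 89.6 and 43.7 CPM, with log2 ratios of 0.80 (0.13 to 1.72) and 0.96 (0.29 to 1.89) over control library 2. Ptgs1, a cyclooxygenase, was at 138, 85.1 and 134 CPM, and in arterial-rich over remaining cells it was low, as Ednrb was, at -2.21 (-3.54 to -1.47) in the angiotensin II library and -1.96 (-3.12 to -1.40) in the salt-sensitive library. Of the transcription factors listed as regulators of Edn1, Fos had 45, 78 and 0 UMIs in endothelial cells, which for the salt-sensitive library is at least 2.25-fold higher than the limit of the control and for the angiotensin II library gives no fold. None of the other 13 was past the fold there. Klf2, a factor induced by flow, was at 1225, 976 and 974 CPM, and Klf4 at 239, 332 and 204 CPM.

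In arterial-rich over remaining cells, 7 of 40 genes of the list were higher past the fold and 1 lower in the angiotensin II library, and 6 of 41 were higher and 1 lower in the salt-sensitive library. Over all genes 9.88% and 5.11% were past the fold in either direction. Higher in both were Pcsk5, Arrb1, Pla2g4a, Fos and Rgs2, a regulator of G protein signalling, at 1.56 and 1.43. Prkca, a protein kinase C, at 1.89 and Klf4 at 1.19 were past the fold in the angiotensin II library, and Gata2, an endothelial transcription factor, at 1.13 in the salt-sensitive library. The lower gene was Ptgs1 in both. In other cells over control library 2, where 2.6% and 2.2% of all genes were past the fold, 5 and 4 of 41 list genes were. Nos3, Klf2 and Klf4 were higher past the fold in both hypertension libraries (1.61, 1.29 and 1.12 for angiotensin II, 1.39, 1.16 and 1.70 for salt-sensitive). Fos was lower in both, at -1.51 and -1.27, and Junb in the angiotensin II library, at -1.04. Over control library 1, where 5.36% and 4.2% of all genes were past it, Klf2, Klf4, Jun and Gnai2 were higher past the fold in both, and 0 of 41 were lower. Fewer were higher in other cells with no UMI of the 4 rule markers. Over control library 2, 3 of 41 and 1 of 40 list genes were higher there and 3 and 3 lower. Over control library 1, 2 of 41 were higher in each and 0 lower. The shares of all genes were 2.85% and 2.38%, then 4.22% and 1.64%.

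The genes whose level followed each member most closely were found by Pearson's r of log2(CPM + 5) over 10 sums of cells, namely the Igfbp3-positive, Igfbp3-negative and other cells of each library with 20 or more cells, among 10010 genes. For Edn1 they were Ptprr (r = 0.98), Nynrin, Rexo2, Eif2s2 and Ecm2 (r down to 0.95). For Ednrb they were Irf7 (r = 0.995), Cdk4, Hras, Flt4 and Rab13 (down to 0.99), and for Ece1 Tbcb (r = 0.99), Polr2f, Rwdd1, Kdr and Elk3. Much of this likeness is the gap between endothelial and other cells, and Kdr is itself a marker of the rule. Over the 6 endothelial sums alone r was 0.98 for Edn1 with Ptprr and 0.98 for Ednrb with Irf7, but 0.36 for Ece1 with Tbcb. The sums share libraries and depth, so these values describe likeness only.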

How the data were processed

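Kidney cells of 4 libraries, 1 pooled per group, were sequenced with the Chromium single-cell 3' kit, per the labels. The deposited files hold UMI counts per gene and cell, with the cells and genes the authors kept. Cell Ranger 7.0.0, Seurat 4.1 and the build mm10 are listed, without role or order, in the submitters' processing notes. Of the 4 tables, 3 gave the values here, and the table joining both hypertension libraries served for Ednra and as an alternative. Counts were summed over the cells of a class and scaled to 1000000 over the 11049 shared genes (Python 3.11.15, numpy 2.4.6, scipy 1.17.1, pandas 2.3.3). Intervals are exact at 95% (Poisson for levels, Clopper-Pearson for shares and ratios), and a count of 0 allows up to 3 counts. With 1 library per group no test was made. Doublets were not removed. The interval and ratio code was tested on simulated counts. Other settings tried were the pseudocount, scaling, thinning, cell thresholds and the minimum of UMIs. Pathway genes named are the ligands, receptor and processing genes, and others past the fold in endothelial, arterial-rich or other cells. The members and lists were chosen with earlier results of these data known.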

Additional observations from a re-analysis of the deposited data

Results flagged for a closer look

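Over the same control library 2, the hypertension libraries lay on opposite sides for Ednrb in endothelial cells, at 0.72 in the angiotensin II library and -0.40 in the salt-sensitive library on the log2 scale. By class, Ednrb was at 0.32 and -0.63 in Igfbp3-positive cells. In Igfbp3-negative cells it was above the control in both libraries, at 1.70 and 0.65. For Edn1 in Igfbp3-positive cells the hypertension libraries also lay on opposite sides, at -1.14 and 0.73. The second turned to -0.65 without cells above the lower arterial threshold, which puts both on the same side. The difference was not tested, since each group is 1 library, and the shared control ties both values of a pair.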

How the results depend on the processing

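Of 531 alternative values for 51 log2 ratios, 511 kept their sign, and all 164 for the 17 ratios past the fold did, though several of those fell short of the fold. With cells thinned to 1000 UMIs, endothelial ratios over control library 2 became 0.37 and 0.32 for Ece1 (angiotensin II and salt-sensitive) and 0.21 for Edn1 (angiotensin II), and Edn1 between the hypertension libraries -1.11. That last ratio was -1.19 as a mean over cells, -1.22 without arterial-rich cells and -0.89 without cells above the lower arterial threshold. Without the same cells, Edn1 of the salt-sensitive library over control library 2 was 0.36 and 0.0199, and Ednrb between the hypertension libraries 1.01 and 0.81. In Igfbp3-positive cells below the lower arterial threshold, Edn1 of the salt-sensitive library over control library 2 was -0.65. With at least 100 UMIs, 196 genes in place of 483 were past the fold for angiotensin II over control library 2, and 304 in place of 715 for salt-sensitive. The cause was not tested. The arterial settings were chosen after seeing the data. No paired analysis was possible because each group is 1 library. Depth limits the control most, with 31 Edn1 UMIs in 126 endothelial cells.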

Other observations

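Some genes were much higher in Edn1-positive than in Edn1-negative endothelial cells of both hypertension libraries. They were ranked over all genes with at least 50 UMIs in each library, with 20 CPM added, and were chosen after their values were seen. Mgp, which encodes matrix Gla protein, an inhibitor of calcification, was at 871 CPM in Edn1-positive against 98.4 CPM in Edn1-negative cells of the angiotensin II library and at 1236 against 221 CPM in those of the salt-sensitive library. Tspan8, a tetraspanin, was at 548 against 48.2 CPM and 739 against 140.5 CPM. Vim, which encodes vimentin, was at 975 against 123 CPM and 1100.4 against 321 CPM. Tgfb2, a transforming growth factor, was at 259 against 27.0 CPM and 596 against 148 CPM. Among the genes lower in Edn1-positive cells, Ednrb ranked first, at 171 against 481 CPM and 76.7 against 240.3 CPM.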
